A study of Saccharomyces cerevisiae with 8 samples.

Results

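The return to growth of meiotic yeast cells was followed in 4 of the 8 TIF-seq libraries of the series. They are the 2 libraries labelled return to growth (T3) and the 2 labelled early meiotic (T1), chosen by their titles. The cells were diploid SK1 budding yeast of strain FW2795, and both groups carried the same alleles: IME1 under the copper-inducible promoter at the IRT1 locus (irt1::pCUP-3HA-IME1), NDT80 under the galactose promoter (ndt80::pGAL-NDT80), and a constitutive Gal4 fusion to the estrogen receptor (ura3::pGPD1-GAL4(848).ER), in a background of ho::LYS2, lys2, leu2::hisG, his3::hisG and trp1::hisG. Both groups received 50 μM CuSO4 after 2 h in sporulation medium (SPO). β-estradiol, which switches NDT80 on in this strain, served for the parallel meiotic divisions (T2) and is not named for T3 or T1. The T3 pool held cells moved at 6 h in SPO to rich medium (YPD) and harvested 15 to 120 min later, and the T1 pool held cells harvested from 3 to 6 h in SPO. Time points were pooled in equal parts within a replicate, and the 2 replicates of a pool were independent. Changes within the T3 or T1 time window cannot be seen in such pools.

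Budding yeast enters meiosis when starved. Without nitrogen and glucose, the master regulator Ime1 switches on the early meiotic genes, and cells copy their DNA and recombine their chromosomes in prophase. Until Ndt80 is made they stay uncommitted, so a supply of nutrients sends them back to mitotic division, a process called return to growth. The shift brings back the growth programme of rich medium, whose chief products are ribosomal proteins, ribosome assembly factors and glycolytic enzymes, and the early meiotic transcripts are lost. TIF-seq joins the capped 5′ end and the polyadenylated 3′ end of each RNA molecule, so that it shows which transcript start site (TSS) goes with which transcript end site (TES).

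Each deposited line was taken as 1 molecule. Its 5′ and 3′ ends were assigned to bins of 100 nt on each strand of the 16 chromosomes. Positions are those of the SK1 assembly used in the study. No annotation or sequence of that assembly was used here, so starts and ends are named by their coordinates and not by gene. The T3 libraries held 856784 and 552357 yeast molecules, and the T1 libraries held 1820826 and 962355. Levels are given as scaled TPM, that is molecules per 1000000 of a library size set by the median of ratios over 5′ bins. On this scale 1 molecule was worth 1.62 and 2.69 in the T3 libraries, against 0.345 and 0.727 in the T1 libraries. In bulk RNA, fewer cells with a transcript and less of it per cell cannot be told apart.

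The molecules of T3 were gathered in far fewer starts than those of T1. The 100 fullest 5′ bins of each library held 48.0% and 49.4% of the molecules in T3, against 23.9% and 24.1% in T1. The groups did not overlap, and the mean difference of 24.7 percentage points was large beside the SDs of 0.948 in T3 and 0.132 in T1 (n = 2 each). An exact two-sided permutation test of 2 against 2 libraries cannot go below p = 0.33, which is the value it gave. When each pair of end positions was counted once, the shares of the 100 fullest bins averaged 22.4% in T3 and 10.9% in T1.

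**Figure D1:**
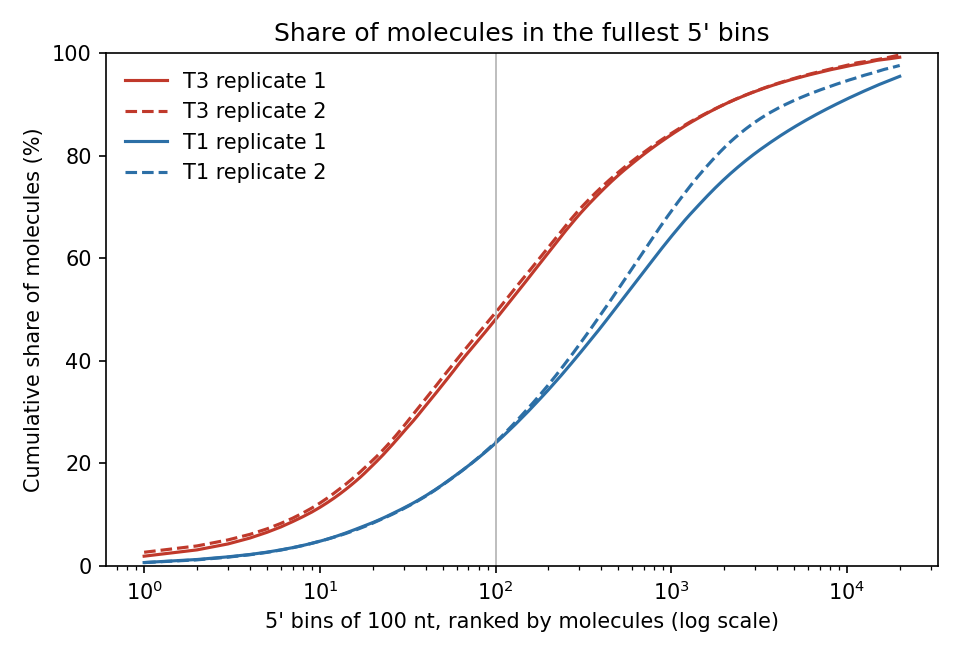
Cumulative share of molecules (percent, y axis) held by the fullest 5′ bins of 100 nt, ranked within each library (x axis, log scale), for the 2 T3 libraries (red) and the 2 T1 libraries (blue). At the grey line, 100 bins, the T3 curves stand at 48.0% and 49.4% and the T1 curves at 23.9% and 24.1%.

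The fullest starts were largely other starts. Of the 100 fullest bins, 88 were the same in both T3 libraries and 82 in both T1 libraries, whereas a T3 and a T1 library shared between 15 and 22. The 100 bins that were fullest in T3 replicate 1 held 48.5% of the molecules of T3 replicate 2, which had no part in choosing them, against 8.48% and 7.53% of those in the T1 libraries. Conversely, the 100 bins fullest in T1 replicate 1 held 14.1% and 14.5% of the T3 molecules, against 23.3% of the molecules of T1 replicate 2. Starts that were the fullest in T3 thus took a small share in T1, and those of T1 kept a reduced share in T3. Over the 11405 bins tested, the log2 levels correlated at r = 0.911 between the T3 replicates, 0.923 between the T1 replicates, and 0.459 to 0.536 between a T3 and a T1 library. The bins within a library share its depth, so these values are descriptions.

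Fewer 5′ bins were in use in T3, counted as bins that held at least 2 molecules at equal depth. After each library was thinned to 500000 molecules, at least 2 molecules were found in 10598 and 10625 bins in T3, against 20506 and 15125 in T1. All T3 values lay below all T1 values (exact permutation p = 0.33, the smallest possible). In the thinned libraries the 100 fullest bins took 48.0% and 49.4% of the molecules in T3, against 23.9% and 24.1% in T1. Fewer molecules were thus left to fall in other bins in T3, so this count is not independent of the concentration given above. The share of spike-in molecules that began near the most frequent 5′ end of pGIBS-LYS lay apart between the stages for that spike-in RNA and overlapped for another. Of the molecules of the pGIBS-LYS spike-in RNA, 79.7% and 73.1% began within 5 nt of its most frequent 5′ end in T3, against 43.2% and 57.5% in T1. For pGIBS-PHE, with 189 to 1642 molecules per library, the shares at the same position were 44.6% and 27.0% in T3, against 19.6% and 49.7% in T1, and here the stages overlapped. That position was taken from pGIBS-LYS, and whether it is the complete 5′ end of pGIBS-PHE was not tested. By either spike-in, T1 replicate 1 had the lowest share of the 4 libraries, and it had the most bins in use. The part of incomplete 5′ ends in the number of bins was not tested.

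Starts changed throughout the genome. Of the 11405 5′ bins that averaged 5 or more molecules per library, limma voom over all 8 libraries called 3799, or 33.3%, with 2-fold or greater change and an adjusted p below 0.05. Of these, 1729 bins rose in T3 (15.2% of those tested) and 2070 fell (18.1%). Most called changes were large, since 1636 rises and 2001 falls reached 4-fold, and 583 rises and 165 falls reached 32-fold. The calls favour large changes. In simulated counts with little spread between replicates (dispersion 0.01), 87 of 100 4-fold and 92 of 100 8-fold changes of 5′ bins were called. With a wide spread (dispersion 0.3), 8 of 100 4-fold and 31 of 100 8-fold changes were called. The bins that rose held 74.9% and 76.5% of all molecules in T3, against 13.8% and 12.7% in T1. The bins that fell held 2.67% and 2.11% in T3, against 36.3% and 40.7% in T1. The T3 libraries had no molecule at 942 and 1219 of the 2070 bins that fell. The size of such falls is limited by the depth of T3. The numbers of 32-fold rises and 32-fold falls therefore cannot be set side by side.

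How many starts rose depends on the scale. The median change over all tested bins was −0.47 (log2) with median-of-ratios scaling, but −1.60 with library totals and −1.01 with the spike-in molecules as the scale. With library totals, 1161 bins were called higher and 4384 lower, and with spike-in molecules, 1354 and 2823. All 2070 falls were called again with either scale, as were 1161 and 1354 of the 1729 rises. None was called in the opposite direction, although 3 changes took the other sign with library totals, without a call. The count also rested on both T3 libraries. Without T3 replicate 1, 1095 bins were called higher and 397 lower, without T3 replicate 2, 1180 higher and 434 lower, and without T1 replicate 1, 1278 higher and 1191 lower. In each of the 8 fits that left out 1 library, 798 of the rises and 254 of the falls were called again.

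**Figure D2:**
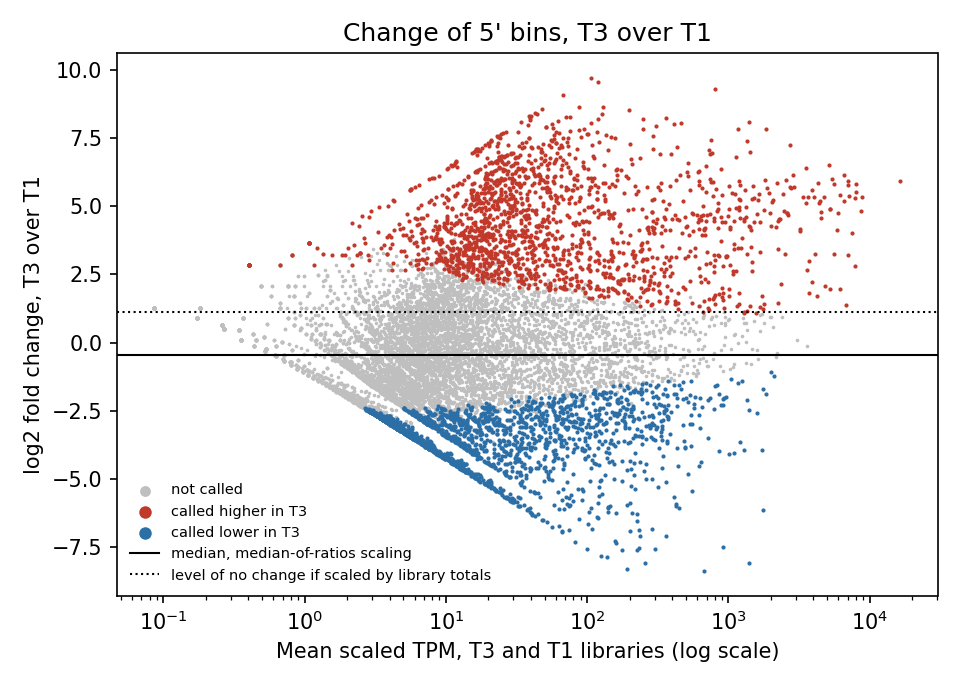
Log2 fold change of each tested 5′ bin, T3 over T1 (y axis), against its mean level in the T3 and T1 libraries in scaled TPM (x axis, log scale). Red points are the 1729 bins called higher in T3, blue points the 2070 called lower, and grey points the rest. The solid line is the median, −0.47, and the dotted line marks where no change would lie if library totals set the scale.

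The bins that rose had low median levels in the other 3 pools. Their median level was 61.7 and 78.1 scaled TPM in T3, against 3.80 and 2.91 in T1. In the libraries outside this comparison, it was 9.57 and 15.4 in pm, the pool taken before IME1 was induced, and 4.28 and 6.52 in T2, the mid-late meiotic pool. The bins that fell had their highest median in T1, with 1.62 and 0 in T3, against 25.9 and 25.5 in T1, and with 9.57 and 10.5 in pm and 19.7 and 17.0 in T2. The T3 and T1 medians follow from the calls. The pm and T2 libraries are outside the contrast, but they entered the filter and the estimate of the spread. Their medians are therefore not fully independent of the calls. Calls were spread over all chromosomes. The share of tested bins that rose was lowest on chromosome 6, at 29 of 290, and highest on chromosome 12, at 207 of 954 (21.7%), and the share that fell ran between 14.9% on chromosome 14 and 20.9% on chromosome 11.

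The 5 fullest starts of T3 were all among the risen ones, and each had 1 main end. The first lay at chr12:351001-351100 on the minus strand, with 15886 and 14449 molecules in T3, against 2207 and 438 in T1. Its level was 25810 and 38916 scaled TPM in T3, against 762 and 319 in T1 (log2 fold change 5.90 ± 0.44 SE, adjusted p = 5.58e-08 by limma), and the change was 6.63 without T1 replicate 1 and 5.26 without T1 replicate 2. Its most frequent 5′ end was position 351066 in both stages. The next was chr2:575601-575700 on the minus strand, with 16013 and 18428 scaled TPM in T3, against 408 and 463 in T1 (log2 fold change 5.32 ± 0.36 SE). Then came chr7:316201-316300 on the plus strand, with 16135 and 17412 in T3, against 545 and 678 in T1. The remaining pair was chr2:587201-587300 on the plus strand, with 15534 and 15953 in T3, against 319 and 383 in T1, and chr7:873701-873800 on the minus strand, with 17110 and 14161 in T3, against 301 and 242 in T1. T3 and T1 libraries did not overlap at any of the 5 bins. The molecules of these starts spanned a median of 529 to 1183 nt, and 87.4% to 99.7% of them ended in 1 bin. At each of the 5, the most frequent 5′ position was the same in T3 and T1.

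Of these 5, the start at chr7:873701-873800 stood apart in the pool taken before meiosis. Its level in pm, 14106 and 13291 scaled TPM, was near that in T3, whereas T2 held 170 and 110. The other 4 had 641 to 6186 in pm and 175 to 1102 in T2. They stood higher in T3 than in any of the other 3 pools.

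The 5 fullest starts of T1 behaved in 3 ways. The fullest, chr12:859501-859600 on the plus strand, had 9587 and 10138 scaled TPM in T3, against 3847 and 3693 in T1. It was called higher (log2 fold change 1.38 ± 0.27 SE, adjusted p = 9.07e-04), but with library totals as the scale its change was 0.27 (adjusted p = 0.386) and with spike-in molecules 0.86 (adjusted p = 0.101). The second, chr14:510901-511000 on the minus strand, had 3202 and 3744 in T3, against 3743 and 3765 in T1. Its change of −0.13 ± 0.36 (SE) was not called, although library totals made it −1.24 (adjusted p = 0.00538). The third and the fourth were called lower. At chr3:147201-147300 on the minus strand the level was 71.5 and 26.9 in T3, against 2720 and 4194 in T1 (log2 fold change −6.15 ± 0.81 SE), and the change was −6.74 without T3 replicate 1 and −5.22 without T3 replicate 2. At chr8:164301-164400 on the plus strand it was 234 and 180 in T3, against 3260 and 3211 in T1 (−3.95 ± 0.53 SE). The fifth, chr13:794601-794700 on the plus strand, had 1357 and 1126 in T3, against 2834 and 3117 in T1. Its change of −1.24 ± 0.34 (SE) was called at an adjusted p of 0.0104, but not without T3 replicate 1 (adjusted p = 0.162) or T3 replicate 2 (adjusted p = 0.31).

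The 8 largest rises among starts that averaged at least 50 molecules per T3 library were nearly without molecules in T1. At chr8:437901-438000 on the plus strand, 840 and 691 molecules were found in T3, against 14 and 1 in T1 (log2 fold change 9.28 ± 0.81 SE, adjusted p = 3.36e-07 by limma). The fitted change was 10.49 without T1 replicate 1 and 8.18 without T1 replicate 2. These molecules spanned a median of 1457 nt, and 80.5% of them in T3 began at position 437908. The same start had 512 and 1747 molecules in pm, but 2 in each T2 library. It was thus in use before meiosis and in T3, and hardly used in T1 and T2.

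For 3 of the rises T1 had no molecule at all, and the fold is a lower bound set by 3 molecules over both T1 libraries. The start at chr11:445101-445200 on the plus strand had 110 and 93 molecules in T3, and was at least 293-fold higher in T3 than in T1. That at chr4:407801-407900 on the plus strand had 66 and 138, and was at least 294-fold higher. The one at chr7:873201-873300 on the minus strand had 76 and 54, and was at least 188-fold higher. Each was seen in both T3 libraries. The bounds are on the median-of-ratios scale, and would be lower with library totals or spike-in molecules as the scale. At chr11:445101 the fitted log2 change was 9.71 on the first scale, against 8.60 with library totals and 9.20 with spike-in molecules.

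Another 3 rises had 1 or 2 molecules in T1, so their ratio is given with its 95% exact counting interval. At chr14:367301-367400 on the plus strand, 89 and 137 molecules in T3 stood against 2 and 0 in T1, a ratio of 489 (134 to 4064). At chr12:461101-461200 on the plus strand, 89 and 77 stood against 1 and 0, a ratio of 719 (127 to 28550). At chr4:569701-569800 on the plus strand, 204 and 66 stood against 1 and 1, a ratio of 584 (160 to 4850). These ratios are also on the median-of-ratios scale and would be lower on the other scales. The intervals are wide because the T1 counts are small, and they cover counting error only. The last of the 8 was chr12:350601-350700 on the minus strand, with 132 and 212 molecules in T3, against 6 and 0 in T1 (log2 fold change 8.53 ± 1.06 SE). Its fitted change was 9.33 without T3 replicate 1, 9.84 without T1 replicate 1 and 7.11 without T1 replicate 2.

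Many of these extreme rises were short or lay inside a longer transcript that also rose. The median span was 120.5 to 301 nt at 5 of the 8. The bin at chr12:350601 shared its most frequent 3′ end in T3, position 350536, with the fullest T3 start at chr12:351001. The bin at chr7:873201 shared position 872572 in the same way with the start at chr7:873701. Whether such bins are TSSs of their own or 5′ ends lost from the longer molecules was not tested. T3 held more short molecules, with 1.83% and 4.12% under 200 nt in T3, against 0.873% and 0.4% in T1.

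The 8 largest falls were almost emptied in T3. At chr5:541701-541800 on the plus strand, 6 and 3 molecules were found in T3, against 6762 and 4515 in T1 (log2 fold change −8.08 ± 0.73 SE, adjusted p = 4.5e-07 by limma). At chr16:319501-319600 on the minus strand, 6 and 0 were found in T3, against 3062 and 2224 in T1 (−8.37 ± 0.87 SE), and the change was −9.74 without T3 replicate 1 and −6.61 without T3 replicate 2. These starts were among the fullest of T1, at rank 8 and rank 50.

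Among the falls, 3 had no molecule in T3. At chr4:173401-173500 on the minus strand, T1 had 652 and 750 molecules, and the level was at least 108-fold lower in T3. At chr4:1189301-1189400 on the minus strand, T1 had 515 and 513 molecules, and the level was at least 79.2-fold lower. At chr6:196801-196900 on the plus strand, T1 had 559 and 420 molecules, and the level was at least 75.4-fold lower. The bounds rest on 3 molecules over both T3 libraries on the median-of-ratios scale, and the smaller depth of T3 keeps them low. The other 3 had 1 or 2 molecules in T3. They were chr5:137001-137100 on the plus strand, with 0 and 1 in T3, against 1243 and 825 in T1, chr15:58901-59000 on the plus strand, with 1 and 0, against 1081 and 452, and chr3:147001-147100 on the minus strand, with 2 and 0, against 1647 and 448. Their T1 to T3 ratios were 478 (95% exact counting interval 85.7 to 18880), 354 (63.5 to 14000) and 242 (66.9 to 1999). The bin at chr3:147001 shared its most frequent 3′ end, position 146059, with the fuller start at chr3:147201, which also fell. Its most frequent 5′ position held 4.3% of its T1 molecules. Whether it is a TSS of its own was not tested.

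The fallen starts were of 2 kinds by their levels outside the comparison. At 5 of them, chr16:319501, chr5:541701, chr4:1189301, chr6:196801 and chr15:58901, the pm libraries had between 0 and 6.83 scaled TPM, and the T2 libraries between 78.2 and 1281. These starts were used in T1 and T2 and hardly used in T3 or before meiosis. At the other 3, chr4:173401, chr5:137001 and chr3:147001, the level in pm was 156 to 608. Those starts were in use in all pools but T3. All 8 fallen starts gave molecules with a median span of 771 to 1182 nt, and 7 were the main start of their 3′ region. The bin at chr3:147001 lay downstream of its main start.

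**Figure D3:**
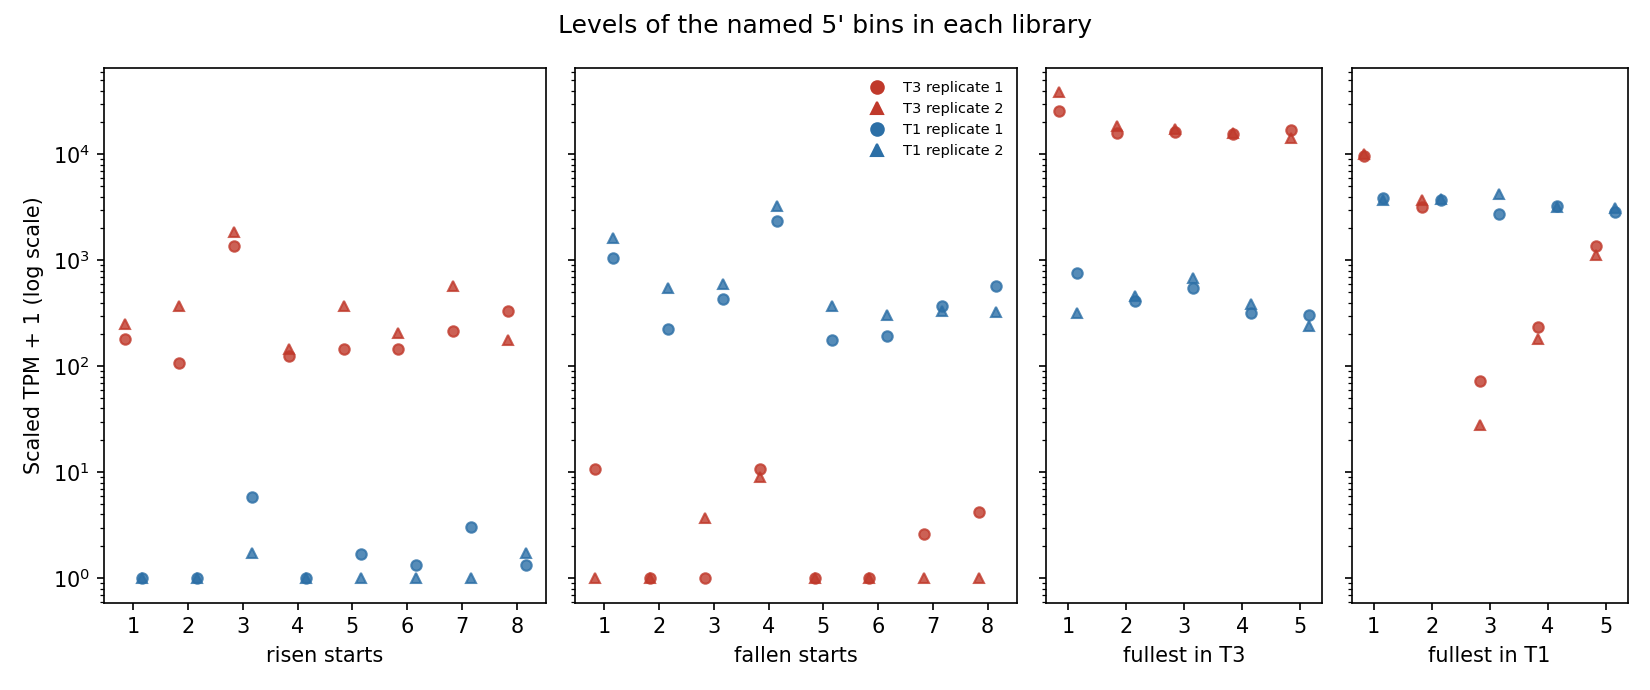
Levels of the named 5′ bins in scaled TPM plus 1 (y axis, log scale) in T3 replicates (red) and T1 replicates (blue), with circles for replicate 1 and triangles for replicate 2. The panels show the 8 largest rises, the 8 largest falls, the 5 fullest starts of T3 and the 5 fullest of T1, each in order of size. T3 and T1 points are apart at each bin of the first 3 panels.

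The bins that rose and those that fell differed in the span of their molecules. In the pm and T2 libraries, which the contrast does not use, molecules from the bins that rose had a median span of 677.5 nt, against 903 nt for the bins that fell and 766 nt for all tested bins. The median span over all molecules did not separate the stages, at 908 and 857 nt in T3, against 900 and 916 nt in T1 (exact two-sided permutation p = 0.667). When only molecules of at least 200 nt were counted, 1587 bins rose and 1980 fell.

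Each 5′ bin was then placed relative to the main start of its 3′ region, a run of neighbouring 3′ bins that stands in for a gene. The main start was the fullest 5′ bin in the pm and T2 libraries. Main starts were called near the rate of all bins, with 715 of 4526 higher in T3 (15.8%) and 911 lower (20.1%), beside 15.2% and 18.1% over all tested bins. Upstream starts had more falls than rises, with 210 of 2349 higher (8.9%) and 531 lower (22.6%). Downstream starts had more rises than falls, with 721 of 4053 higher (17.8%) and 578 lower (14.3%). Of bins under transcripts of the opposite strand, 116 of 1395 rose (8.3%) and 18.4% fell, against 1613 of 10010 (16.1%) and 18.1% of the other bins. These shares are descriptions, with no test of the differences between classes.

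**Figure D4:**
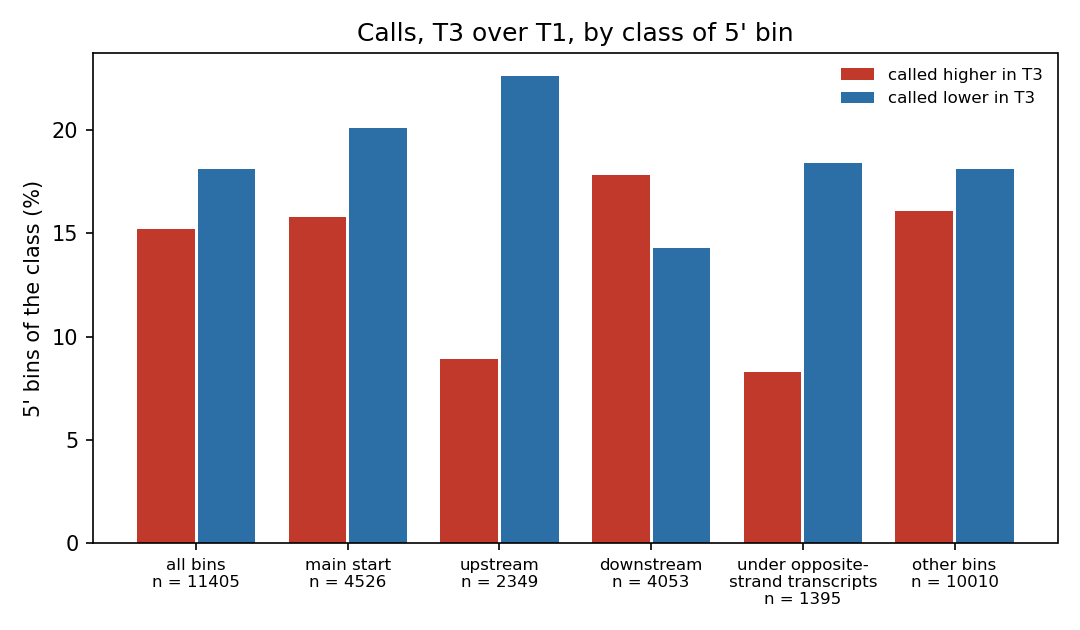
Percent of tested 5′ bins of each class called higher in T3 (red) or lower in T3 (blue), with the number of bins tested under each class. Upstream bins show 8.9% higher and 22.6% lower, downstream bins 17.8% and 14.3%. Bins under opposite-strand transcripts are those crossed by 5 or more molecules per pm and T2 library on average on the other strand.

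Counted by molecules, main starts took a larger share in T3. They gave 81.3% and 80.8% of all molecules in T3, against 70.6% and 76.8% in T1. Upstream starts gave 4.17% and 3.67% in T3, against 8.60% and 8.35% in T1, so that the groups did not overlap for either class. Downstream starts gave 9.73% and 10.3% in T3, against 10.7% and 8.36% in T1, and here the stages overlapped. Molecules outside the tested bins, which have no class, were 4.51% and 4.85% in T3, against 9.75% and 6.16% in T1. They count in the totals and lower the shares of T1 more. Molecules of pGIBS-LYS, but not those of pGIBS-PHE, began more often near the most frequent pGIBS-LYS 5′ end in both T3 libraries than in both T1 libraries, as given above. The part of incomplete 5′ ends in these shares was not tested.

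Starts of 1 transcript unit mostly moved together, apart from fallen upstream starts, of which many had a main start without a call. Over all 4526 main starts tested, 715 rose (15.8%) and 911 fell (20.1%). The next counts are by bin, so the same main start can be counted with several bins. Of the 713 downstream starts that rose and whose main start was tested, 633 had a main start that rose and 3 one that fell. Of 203 such upstream starts, 177 had a main start that rose and 2 one that fell. Of the 568 downstream starts that fell, 493 had a main start that fell and 2 one that rose. Of 515 such upstream starts, 296 had a main start that fell, 15 one that rose and 204 one that was not called. Counted by main start, 145 had a risen upstream start, and of these 119 rose, 2 fell and 24 were not called, with a median log2 change of 4.16. Where the nearest risen upstream start lay within 200 nt, 109 of 122 main starts rose. Where it lay farther off, 10 of 23 rose, 1 fell and 12 were not called. Close bins can belong to 1 broad start, and the bins of a unit share molecules' ends, so these counts have no test.

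At the 3′ side the picture was alike. Of 9787 3′ bins, 3105 were called (31.7%), 1519 higher in T3 (15.5%) and 1586 lower (16.2%). Of 13095 pairs of a 5′ and a 3′ bin joined by the same molecules, 4522 were called (34.5%), 2071 higher and 2451 lower. The 3′ partner of each named rise and fall was called in the same direction. Both ends come from the same molecules, so the 3′ and pair calls are not independent of the 5′ calls, and agreement is largely built in. At chr12:350601, chr7:873201 and chr3:147001 the partner bin was also that of the fuller start named above. Without T3 replicate 1, 1269 3′ bins and 1590 pairs were called, without T3 replicate 2, 1264 and 1699, and without T1 replicate 1, 1950 and 2885. With library totals the 3′ calls were 989 higher and 3674 lower, and the pairs 1492 higher and 5007 lower.

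Calls of a changed choice of start within a 3′ region were few. Of 2426 3′ regions with 2 or more measured starts, 63 changed their start usage (2.6%; limma diffSplice, adjusted p below 0.05 and a share that moved by 10 percentage points or more). At an unadjusted p under 0.05 there were 295. In simulated data, 187 of 200 8-fold changes of start usage were called at a dispersion of 0.01, and 35 of 200 at 0.3. The changed regions were drawn from those whose measured starts each averaged 20 or more molecules per library. Few calls thus need not mean few changes. End usage was not simulated. In 34 of the 63 the start that gained most in T3 lay downstream of the fullest T1 start, in 5 it lay upstream, and in 24 it was the fullest T1 start itself. Over the 39 that gained elsewhere, the median distance was 200 nt, and 17 were neighbouring bins. In 41 of the 63 every T3 and T1 library had at least 20 molecules, and there the gain was downstream in 18, upstream in 3 and at the fullest T1 start in 20.

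These usage calls rest on all 4 libraries. Without T3 replicate 1, 10 regions were called, without T3 replicate 2, 8, without T1 replicate 1, 17, and without T1 replicate 2, 14, and 3 of the 63 were called in each of the 8 fits that left out a library. Leaving out T2 replicate 1 or 2, which the contrast itself does not use, gave 110 and 122.

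The largest gain downstream was between neighbouring starts on chromosome 16. In the 3′ region at chr16:239501-239700 on the minus strand, the start at chr16:240601-240700 gave 99.1% and 99.2% of the molecules in T3 (217 and 122), against 11.1% and 10.2% in T1 (10 and 5). The start 100 nt upstream, at chr16:240701-240800, gave 0.91% and 0.81% in T3, against 88.9% and 89.8% in T1 (adjusted p = 1.89e-04). The most frequent 5′ end was position 240630 for the first in T3 and 240781 for the second in T1. In pm the downstream start had 98.6% and 100% of the molecules, and in T2 1.79% and 2.00%, so T3 was like pm and T1 like T2 at this locus.

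A second switch of this kind was on chromosome 4. In the 3′ region at chr4:119401-119700 on the minus strand, the start at chr4:120601-120700 gave 91.3% and 92.2% in T3 (692 and 332 molecules), against 16.4% and 10.9% in T1 (37 and 11). The start at chr4:120701-120800 gave 7.78% and 5.56% in T3, against 77.3% and 88.1% in T1 (adjusted p = 3.33e-04). In pm the pair was used about equally, with 53.2% and 50.8% from the downstream start, and in T2 the downstream start gave 14.6% and 20.2%.

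Longer distances separated the starts in another 3 regions. At chr14:651201-651500 on the plus strand, a start 400 nt downstream of the fullest T1 start gave 79.5% and 82.3% in T3 (201 and 320 molecules), against 21.0% and 1.17% in T1 (59 and 3; adjusted p = 0.0318). At chr11:285701-285800 on the plus strand, a start 300 nt downstream gave 87.1% and 90.0% in T3 (74 and 135), against 27.7% and 11.8% in T1 (163 and 12; adjusted p = 0.0464). At chr2:701101-701600 on the minus strand, a start 700 nt downstream gave 100% in both T3 libraries (57 and 190), against 2 molecules and 0 in T1 (adjusted p = 0.0122). The T1 shares of this last region rest on few molecules. In all 3 regions the gaining start lay within the 3′ region itself, so its molecules there were short. On chromosome 11 the start bin and the 3′ region were the same bin. T3 held more molecules under 200 nt, as given above, and whether these 3 gaining bins are TSSs of their own was not tested.

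Gains upstream were fewer. In the 3′ region at chr11:148501-148800 on the minus strand, the start at chr11:149901-150000 gave 95.9% and 97.6% in T3 (70 and 40 molecules), against 45.5% and 54.3% in T1 (46 and 19; adjusted p = 0.0415). It gave 96.5% and 93.8% in pm and 90.1% and 85.0% in T2, so that T1 was the pool that differed. In the only other such region that met the rule, at chr5:63001-63200 on the plus strand, an upstream start gave 12.7% and 8.15% in T3, against 3.68% and 5.28% in T1 (adjusted p = 9.1e-04). There the fullest T1 start gained more, with 85.2% and 89.2% in T3, against 75.9% and 65.8% in T1.

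**Figure D5:**
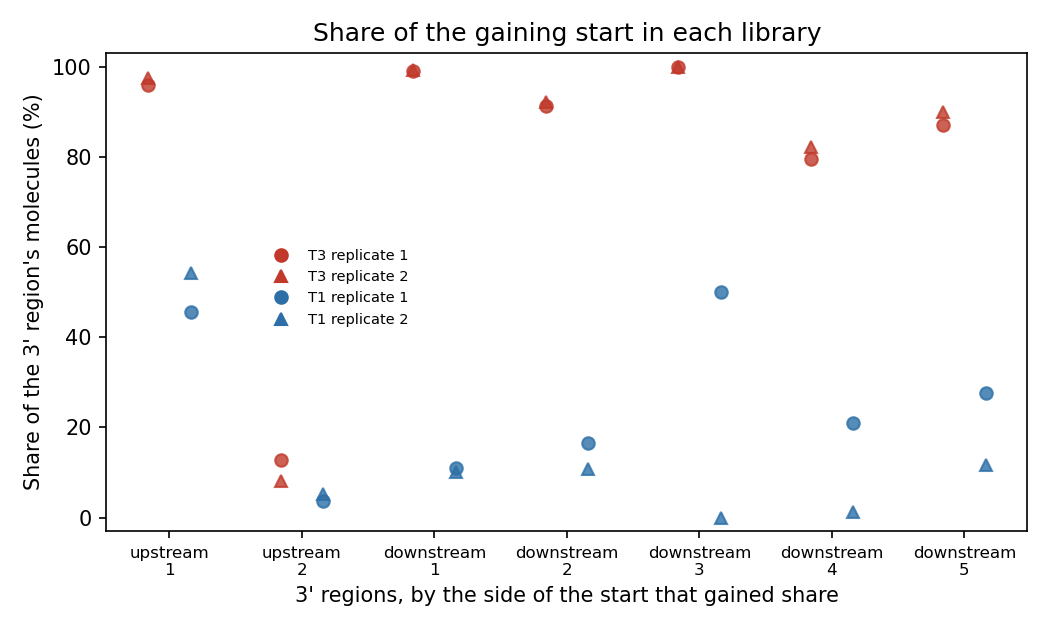
Share of the molecules of a 3′ region that came from the start that gained share (percent, y axis) in T3 replicates (red) and T1 replicates (blue), with circles for replicate 1 and triangles for replicate 2. The 7 regions are those that met the naming rule, 2 with a gain upstream and 5 with a gain downstream of the fullest T1 start. At the first downstream region the T3 points lie at 99.1% and 99.2% and the T1 points at 11.1% and 10.2%.

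Calls of changed end usage were few, and mostly towards nearer ends. Of 2686 5′ bins with 2 or more measured ends, 64 changed their end usage (2.38%), and 449 had an unadjusted p under 0.05. In 55 of the 64 the end that gained most in T3 lay upstream of the fullest T1 end, in 2 downstream, and in 7 it was the fullest T1 end. The median distance was 500 nt. In the 48 with at least 20 molecules in every T3 and T1 library, the counts were 40, 2 and 6. When only molecules of at least 200 nt were counted, 35 starts were called, with 30, 1 and 4, and the median distance was 200 nt. With the replicate number as a block 32 were called, with 27, 1 and 4, and the median distance was 600 nt. T3 held more molecules under 200 nt, as given above, and their part in the other calls was not tested.

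This count changed with each library left out. Without T3 replicate 2 and without T1 replicate 2 limma called 0 starts, with 170 and 226 at an unadjusted p under 0.05, and without T3 replicate 1 or T1 replicate 1 it called 3 each. Without pm replicate 1 or 2 it called 14 and 8, and without T2 replicate 1 or 2 it called 195 and 183.

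At the largest gains of a nearer end, T3 had few molecules. From the start at chr16:816701-816800 on the plus strand, 65.0% and 90.2% of the molecules ended at chr16:817001-817100 in T3 (26 and 37), against 7.69% and 0% in T1 (4 and 0; adjusted p = 0.0317). The fullest T1 end of this start lay 700 nt farther on and took 35.0% and 9.76% in T3, against 92.3% and 100% in T1. From chr7:162701-162800 on the minus strand, the gaining end had 1 molecule in each T3 library, against 27 and 3 in T1, where the fullest end had 815 and 746. From chr12:631401-631500 on the plus strand it had 3 and 1 molecules in T3, against 5 and 1 in T1, where the fullest end had 228 and 156. Both these starts were nearly empty in T3, and their shares there rest on those molecules.

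Gains of a farther end were named at 3 starts. From chr7:568701-568800 on the minus strand, the end at chr7:568201-568300 took 53.1% and 49.4% in T3 (892 and 671 molecules), against 36.6% and 33.4% in T1 (3052 and 1397; adjusted p = 0.0211). From chr2:290101-290200 on the plus strand, an end 500 nt beyond the fullest one took 20.6% and 8.67% in T3 (36 and 13), against 1.23% and 0.99% in T1 (31 and 10; adjusted p = 0.0403). From chr2:321901-322000 on the minus strand, a farther end took 18.0% and 19.2% in T3 (7 and 5), against 10.2% and 8.46% in T1 (98 and 43; adjusted p = 0.0317). At this start a nearer end, at chr2:321801-321900, gained more, with 12.8% and 38.5% in T3 (5 and 10), against 1.25% and 0% in T1 (12 and 0). T3 and T1 libraries did not overlap at any of these ends, and the last start had few molecules in T3.

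Where a start was used in both stages, its exact position was mostly kept. The most frequent 5′ position was compared in 731 bins with at least 50 molecules in each T3 and T1 library. It was the same in 83.6% of bins between the T3 replicates and in 81.4% between the T1 replicates, and in 75.2% to 81.0% between a T3 and a T1 library. In 531 bins both replicates of each stage had the same position. Between stages it was the same in 498 of these, 25 had moved downstream in T3 and 8 upstream, and 24 moves were over 10 nt.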

How the data were processed

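TIF-seq molecules of 2 T3 and 2 T1 libraries were compared, and the 4 pm and T2 libraries entered the fits to share 1 estimate of the spread. Per the labels and the study's methods, libraries were made with TIF-Seq2 and molecules were told apart by UMIs. The submitters' processing notes name cutadapt 1.16, STAR 2.5.3a and bedtools. The deposited lines give positions and strands on the SK1 assembly, with no count or normalization (other values: positions). The labels give another RNA input than the study's methods, so none is stated.

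Each line was counted as 1 molecule, its 5′ end taken from the first read and its 3′ end from the second. Counts per 100-nt bin, pair of bins, or pair of 5′ bin and 3′ region were fitted with limma voom (stage as the only term, 5 or more molecules per library on average, Benjamini-Hochberg adjustment), and usage with diffSplice. The count model of the study's methods was not used, since the files hold no count column. Single values were compared with exact permutation tests. Named starts were the 8 largest rises and 8 largest falls (at least 50 molecules per library in the higher stage, no overlap of libraries, 1 per 500 nt) and the 5 fullest of each stage. Named regions were the up to 5 largest start gains and 3 largest end gains on each side that held in every pair of libraries. Members, lists and rules were chosen with earlier results of these data known. Steps were tested on simulated data. Fits were made in limma 3.58.1 under R 4.3.3, and counting, other tests and plots with scipy 1.17.1, numpy 2.4.6, pandas 2.3.3 and matplotlib 3.10.9 under Python 3.11.15.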

Additional observations from a re-analysis of the deposited data

Results flagged for a closer look

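Molecules of the 3 spike-in sequences, which the comparisons of starts and ends use only where they set an alternative scale, were found in every library. There were 1290 and 898 in the T3 libraries, against 4396 and 2217 in the T1 libraries. Per 1000000 yeast molecules this was 1506 and 1626 in T3, against 2414 and 2304 in T1, without overlap. The study's methods give an equal amount of spike-in RNA per sample for its TSS-seq libraries, and do not repeat it for TIF-seq.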

How the results depend on the processing

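A filter of at least 20 molecules per library gave 1876 5′ bins, 1949 3′ bins, 2218 pairs, 28 start usage and 23 end usage calls, from fewer features tested. No filter gave 14408, 38254 and 108951 (usage not run), with 11250, 35301 and 103385 of them higher in T3, and a median log2 change of 1.17 over 5′ bins. The fit of only T3 and T1 libraries gave 6209, 5045, 7712, 123 and 223. Library totals as the scale gave 5545, 4663 and 6499. Left-out libraries gave 1492 to 4968 5′ bins, 1264 to 4373 3′ bins, 1590 to 6205 pairs, 8 to 122 start usage and 0 to 195 end usage calls. Where T3 or T1 kept 1 library, it was assumed to vary like the other groups. End usage gave 104 calls with limma-trend, 35 with spans of at least 200 nt, and 32 with the replicate block. The block gave 3377 5′ bins, 2837 3′ bins, 4057 pairs and 43 start usage calls. Same-numbered T3 and T1 libraries did not deviate together (r = -0.052 over 5′ bins), so the numbers were not taken as pairs. The 2 alternatives below were added after seeing the data. Spike-in scaling is given in the report. A floor of 20 molecules in every T3 and T1 library left 41 start usage and 48 end usage calls. The T3 minus T1 share of the fullest bins was 26.8 points for 300 bins, 11.5 with end pairs counted once, and 26.0 with spans of at least 200 nt. The T3 minus T1 number of bins in use was -12624.5 at 1 or more molecules and -2819.5 at 5 or more. Named starts whose change moved by over 1.5-fold with 1 library left out are given so in the report where a fitted change is printed. Of 416 alternative values of 26 named starts, no called value changed direction, 5 lost the call and 1 gained it. Those 6 belong to the starts at chr12:859501, chr14:510901 and chr13:794601, and the value not given in the report is that of chr13:794601 with the stricter filter, -0.92 (adjusted p = 0.0265, below the 2-fold threshold). In the T3 libraries, the depth limits bounds on starts that emptied.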
